A study of Mus musculus with 16 samples.

Results

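The effect of a high-fat diet on ear skin that had received no PMA was measured in 8 of the 16 libraries of the series, picked by sample title, and over the 17604 of 48440 listed genes that had enough counts to be tested. HFD_cont were 4 B6 mice on a high-fat diet, which per the labels' protocol lasted 8 weeks, with ears labelled non-treated. ND_cont were 4 B6 mice on a normal diet, with ears labelled non-treated as well. HFD_PMA and ND_PMA, 4 B6 mice each on the same diets, had 200 ng of PMA put on each ear and were sampled 24 h later. PMA, phorbol myristate acetate, switches on protein kinase C in skin cells and provokes inflammation and thickening of the epidermis. No allele, transgene or deletion is named in any group. The labels used here leave out sex, age and any solvent put on the untreated ears.

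B6 mice gain weight and fat on a high-fat diet, which makes them a common model of obesity. The ear is a thin organ with epidermis on both faces, a dermis of fibroblasts and collagen, hair follicles with sebaceous glands, and a sheet of cartilage with muscle and fat. Keratinocytes divide in the basal layer, mature upwards and are shed as dead cornified cells, and hair follicles alternate between growth, when the shaft and root sheath genes are on, and rest, when they are off.

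Polyadenylated RNA was amplified from 2 ng of total RNA per ear by SMART-Seq2 and sequenced. Library totals were 7989172 to 13801239 counts in HFD_cont and 7739487 to 10339316 in ND_cont. Levels are CPM, counts scaled to a common library total, and ± gives the SD over 4 mice. Log2 fold changes are HFD over ND with their SE, and a gene was called where its Benjamini-Hochberg-adjusted p from edgeR's quasi-likelihood test, adjusted over all 17604 genes, lay below 0.05.

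Several properties of the libraries ran along with the diet. The library IDs of all 4 ND_cont mice and of HFD_cont_1 begin with RHS, and those of HFD_cont_2, HFD_cont_3 and HFD_cont_4 begin with RHP. The labels do not explain the prefix. The mean log2 CPM of 19 genes of the growing hair shaft and inner root sheath was 6.2, 5.61, 1.79 and 4.15 in HFD_cont_1 to HFD_cont_4, against -0.85, 0.18, 0.29 and 0.80 in ND_cont_1 to ND_cont_4. Every HFD_cont ear was thus above every ND_cont ear, HFD_cont_3 by the least. The mean length of the gene behind a count was 4816.3 to 4921.9 bases in HFD_cont and 5021.4 to 5456.9 in ND_cont, without overlap. Pseudogenes took 1.557 to 1.619% of counts in HFD_cont and 1.208 to 1.388% in ND_cont, and transcripts of the mitochondrial genome 2.094 to 2.93% in HFD_cont and 1.483 to 2.183% in ND_cont. How much of any difference below comes with the prefix, the hair cycle or the length trend cannot be told apart from diet by the design alone. Fits that take account of each are given below for the calls as a whole, and beside a part of the single genes.

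In untreated skin 691 genes differed between the diets, which is 3.93% of those tested: 505 were higher (2.87%) and 186 lower (1.06%) in HFD_cont. Of these, 165 rose and 31 fell by more than 1 on the log2 scale. The shares of 2.87% and 1.06% stand for all genes wherever called members of a list are counted below. The median log2 fold change over all genes was -0.02. The 4 HFD_cont values lay outside the range of the 4 ND_cont values in 480 of the higher and 173 of the lower genes. Over all genes tested 7.18% and 5.46% did so, 12.6% in all. HFD_cont_1, which carries the same ID prefix as the ND_cont libraries, was above all of them in 497 of the 505 higher genes and below all of them in 183 of the 186 lower genes (98.4% each, against 24.1% of all genes in each direction). HFD_cont_1 took part in the test that chose these genes, so these shares are a description. In whole ears fewer cells of a type and less RNA per cell cannot be told apart.

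With the prefix as a covariate 179 genes were called (163 higher, 16 lower), and 149 of the 691 were among them. With HFD_cont_2 to HFD_cont_4 left out, so that HFD_cont_1 alone stood against ND_cont and was assumed to vary like the other groups, 132 were called (125 higher, 7 lower). All ND_cont libraries are RHS and all PMA libraries RHP, so the prefix term is set by HFD_cont_1 against HFD_cont_2 to HFD_cont_4. Both fits therefore compare 1 ear, HFD_cont_1, the highest in hair genes, with ND_cont, and their likeness follows from the design. With the hair gene level as a covariate 493 were called and 312 of the 691 were among them. Removing the trend of expression on gene length, a setting chosen after the data had been seen, left 493 called (388 higher, 105 lower), 443 of them among the 691. The called higher genes were short, with a median length of 1829 bases, against 5058 for those called lower and 3497.5 over all genes tested. Leaving out single libraries gave 336 to 889 called genes: 424, 419, 420 and 400 without HFD_cont_1 to HFD_cont_4, 352 without ND_cont_3 and 336 without ND_cont_4.

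Most single calls thus ended with the prefix as a covariate, a fit that rests on HFD_cont_1. Of 124 called genes followed by name 29 were called there, among them Klk6, Klk8, Klk9, Klk13, Spink7, Dhrs9, Rbp2, Gja1, Gjb6, Igfbp2, Il1f5, Il1f6, Cxcr2, Serpina9, Krt79, Krt84, Krtap26-1, Manf, Nhp2, Pla2g4e, Psat1, Psmb5, Rpl13a, Rps2, Rpsa, Tdh, Teddm3 and Tubb3. None of the 29 was lower in HFD_cont. Not called there were Ucp2, Epgn and Alox8, at log2 fold changes of 0.68, 2.20 and 4.37. Nor were C7, Igfbp5, Dkk3 and Slc6a2, at -1.47, -0.56, -0.61 and -1.29. With the hair gene level as a covariate 64 of the 124 were called. Among those not called were Pla2g4e (log2 fold change 0.66, edgeR adjusted p = 0.2345) and Lcn2 (1.46, edgeR adjusted p = 0.1166).

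**Figure D1:**
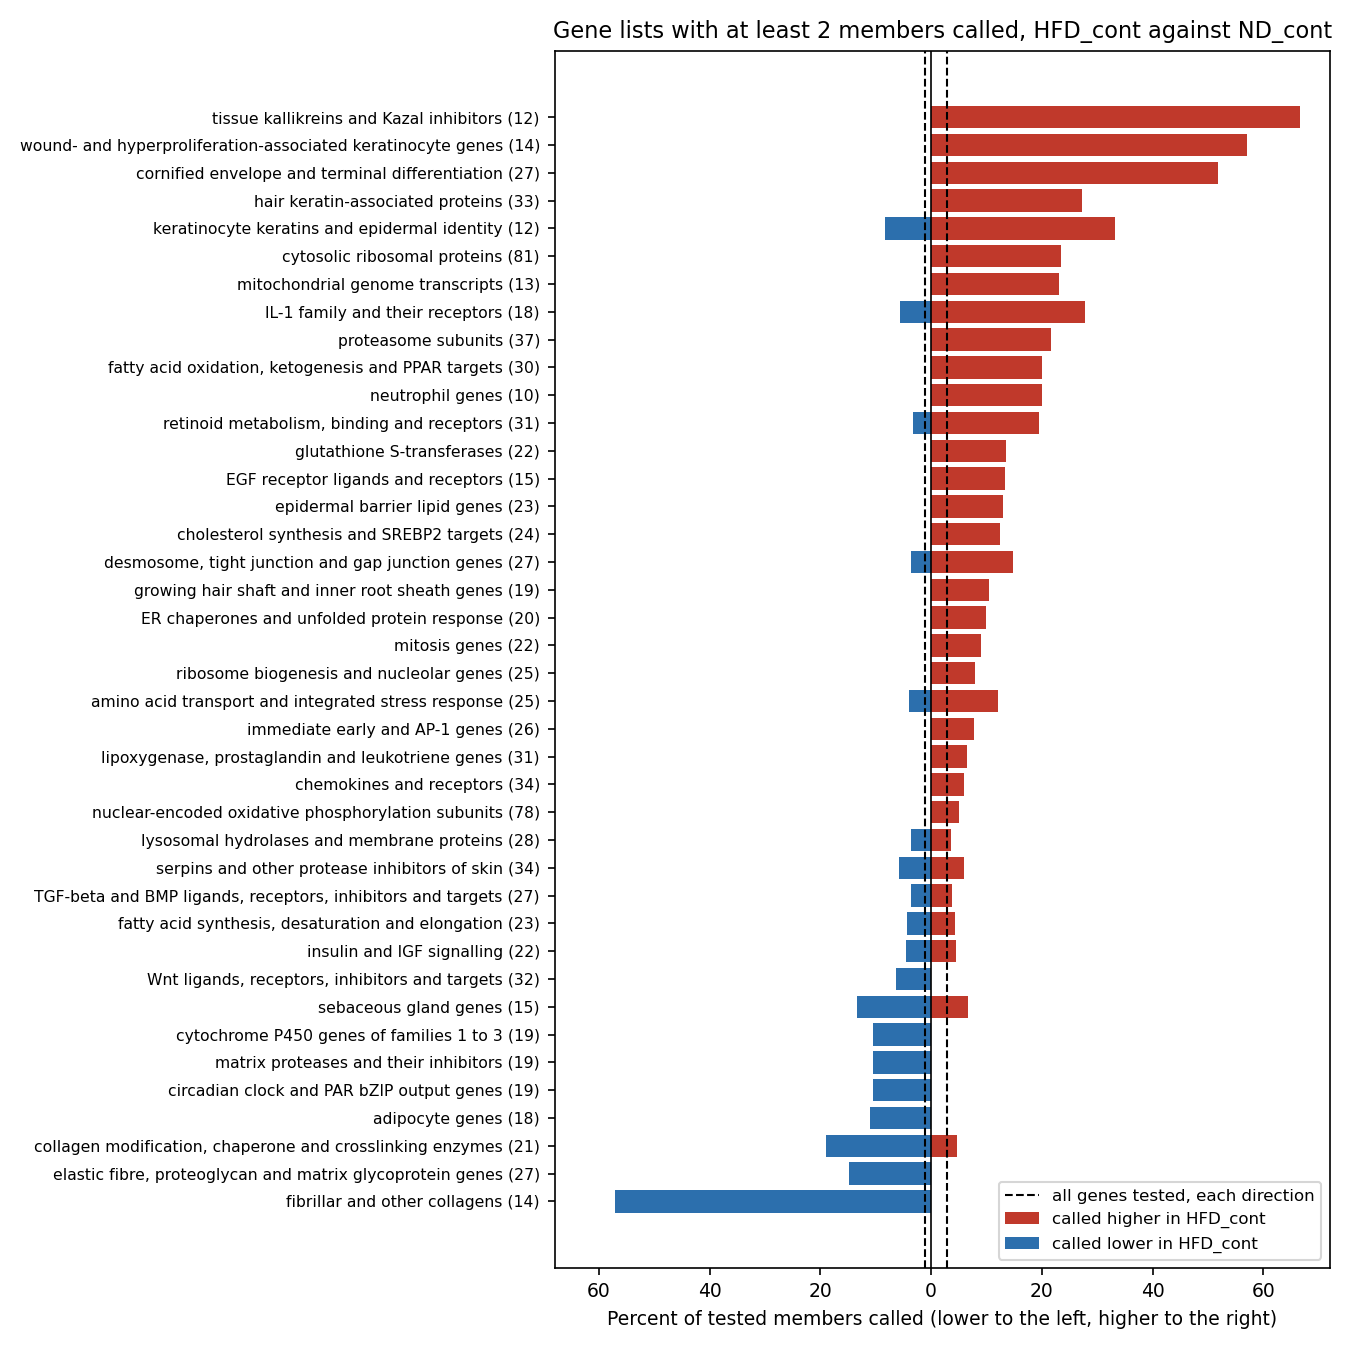
Percent of the tested members of each gene list called higher (red, right) or lower (blue, left) in HFD_cont against ND_cont, for lists with at least 2 called members; the number tested stands in brackets and the dashed lines mark all 17604 genes (2.87% higher, 1.06% lower). Tissue kallikreins and Kazal inhibitors reached 66.7% called higher, and fibrillar and other collagens 57.1% called lower.

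Kallikreins, the serine proteases that cut the corneodesmosomes holding cornified cells together, had the highest share of called members of all the lists counted. Of 12 tested kallikreins and Kazal-type inhibitors 8 rose and 0 fell, against 2.87% of all genes called higher, and the median log2 fold change was 1.09, against -0.02 over all genes. The 8 were Klk5, Klk6, Klk7, Klk8, Klk9, Klk11, Klk13 and Spink7. Klk10, Klk12, Klk14 and Spink5 were not called. The 10 kallikreins lie in 1 cluster on chromosome 7 of GRCm38, all on the plus strand, with Klk14 at its start and Klk5 151.6 kb further on.

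The 150 bases before the RefSeq start sites (GRCm38.p6) of 3 called kallikreins are shown because the level of Klf4, a transcription factor of the upper epidermis that binds CACCC boxes in DNA, rose as well. Capitals mark the box CACCC, read on either strand and so also as GGGTG.
Klk13 (chr7:43712417-43712566, plus strand): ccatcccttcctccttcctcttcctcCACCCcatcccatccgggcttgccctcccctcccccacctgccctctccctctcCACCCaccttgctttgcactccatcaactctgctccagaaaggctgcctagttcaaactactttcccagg
Klk7 (chr7:43811144-43811293, plus strand): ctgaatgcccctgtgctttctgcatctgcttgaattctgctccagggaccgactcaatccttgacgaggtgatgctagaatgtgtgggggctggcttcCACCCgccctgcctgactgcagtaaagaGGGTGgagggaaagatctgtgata
Klk8 (chr7:43797427-43797576, plus strand): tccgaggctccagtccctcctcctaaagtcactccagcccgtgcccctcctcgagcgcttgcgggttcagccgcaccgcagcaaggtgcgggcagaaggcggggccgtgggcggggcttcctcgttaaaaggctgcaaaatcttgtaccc
The box begins 124 and 70 bases before the Klk13 start site and 52 and 24 bases before that of Klk7, and these letters are not in the Klk8 window. Among the other kallikreins, the called Klk5, Klk6, Klk9 and Klk11 have it in a window, and so does Klk10, which was not called. The windows of Klk12 and Klk14, not called either, lack it. Whether Klf4 acts on any of these genes was not tested. Of 32851 mouse promoter windows of this length 37.4% hold it, so a match is a description and no site. The AP-1 motif TGANTCA, on either strand, is in 4.24% of these windows and in no kallikrein window.

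Klk13, a kallikrein of stratified epithelia, measured 59.2, 42.0, 29.3 and 27.4 CPM in HFD_cont_1 to HFD_cont_4, against 2.84, 5.30, 1.63 and 6.40 in ND_cont_1 to ND_cont_4. The groups did not overlap, and HFD_cont_1, the ear with most hair transcripts, was the highest. Klk13 averaged 39.5 ± 14.7 CPM in HFD_cont and 4.04 ± 2.19 in ND_cont (n = 4 each), a log2 fold change of 3.28 (SE 0.37, edgeR adjusted p = 7.38e-05). Klk6 had 75.0, 69.8, 55.1 and 64.8 CPM in HFD_cont against 7.28, 17.6, 9.04 and 10.4 in ND_cont, a log2 fold change of 2.56 (SE 0.22, edgeR adjusted p = 1.41e-06).

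Klk8, a kallikrein of the granular layer, had 137, 112, 135 and 112 CPM in HFD_cont, against 47.4, 48.1, 50.3 and 47.4 in ND_cont. The ND_cont values were nearly equal, and every HFD_cont ear was above them (log2 fold change 1.36, SE 0.11, edgeR adjusted p = 3.82e-07). Klk8 shares exon bases with an opposite-strand transcript, and without strand information reads of both cannot be separated. Klk9 averaged 81.8 ± 9.75 CPM in HFD_cont and 34.5 ± 4.65 in ND_cont (log2 fold change 1.24, edgeR adjusted p = 1.87e-05).

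Klk5 and Klk7, the main desquamation proteases, rose by 1.03 (edgeR adjusted p = 0.000206) and 0.82 (edgeR adjusted p = 0.000268) on the log2 scale. Klk7 stood at 1139.7, 1146.1, 1112.3 and 1178.8 CPM in HFD_cont, against 684.85, 730.64, 660.62 and 515.3 in ND_cont. Klk11 averaged 182 ± 11.3 CPM in HFD_cont and 106 ± 19.5 in ND_cont (log2 fold change 0.78, edgeR adjusted p = 0.000946). Klk10 was at 243 ± 28.9 CPM in HFD_cont and 168 ± 51.8 in ND_cont and did not pass the test (log2 fold change 0.54, edgeR adjusted p = 0.155).

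Of the inhibitors 1 of the 2 tested was called. Spink5, which encodes LEKTI, the main inhibitor of KLK5 and KLK7, had 812 ± 53.7 CPM in HFD_cont and 758 ± 58.7 in ND_cont (log2 fold change 0.10, SE 0.17, edgeR adjusted p = 0.853). Spink7, another Kazal-type inhibitor, had 5.68, 2.16, 2.76 and 1.95 CPM in HFD_cont, against 0, 0.568, 0 and 0.224 in ND_cont. These are few counts, and in PMA-treated ears Spink7 was at 0.679 CPM in HFD_PMA and 2.76 in ND_PMA, the other way round but not called.

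Every fit that left out 1 library called 8 members of the list, except that without ND_cont_2, which called 9. With the prefix as a covariate 7 were called, with the hair gene level as a covariate 7, and after removal of the length trend 8. In the RHS libraries alone 5 were called. In PMA-treated skin 4 were called higher and the median log2 fold change was 0.59.

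**Figure D2:**
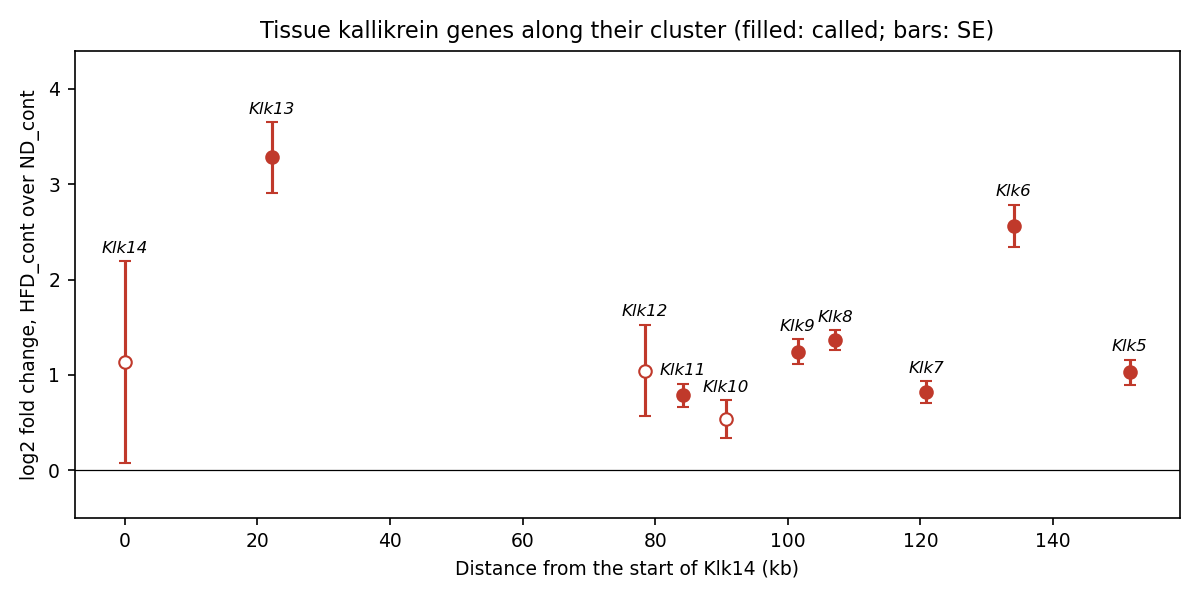
Log2 fold change of each tested kallikrein gene, HFD_cont over ND_cont, by distance in kb from the start of Klk14; filled circles were called, open circles were not, bars are SE. All 10 estimates lie above 0, with Klk13 at 3.28 and Klk6 at 2.56 the highest.

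Genes of vitamin A handling were called in both directions, most of them higher. Retinoids control keratinocyte maturation, and skin oxidises retinol to retinoic acid through alcohol and short-chain dehydrogenases while binding proteins carry both. Of 31 tested genes of retinoid metabolism, binding and response 6 rose and 1 fell (19.4% and 3.23%, against 2.87% and 1.06% of all genes), with a median log2 fold change of 0.13. Those that rose included the binding proteins Rbp2 and Crabp2 and the dehydrogenases Adh7, Dhrs9 and Sdr16c5. Dhrs3, a reductase that turns retinal back into retinol, fell by 0.44 on the log2 scale (edgeR adjusted p = 0.0439).

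Rbp2, the cellular retinol-binding protein known from the gut, had 24.3, 11.7, 7.12 and 6.52 CPM in HFD_cont, against 0.741, 2.65, 1.73 and 3.70 in ND_cont. The groups did not overlap, and HFD_cont_1 and HFD_cont_2, the ears with most hair transcripts, were highest. The log2 fold change of Rbp2 was 2.47 (SE 0.41, edgeR adjusted p = 0.00172), and 1.58 (edgeR adjusted p = 0.0922) with the hair gene level as a covariate.

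Adh7, a retinol-oxidising alcohol dehydrogenase of epithelia, had 717, 723, 712 and 608 CPM in HFD_cont, against 387, 384, 364 and 376 in ND_cont. No library came between the groups (log2 fold change 0.87, SE 0.16, edgeR adjusted p = 0.00329). PMA-treated ears showed Adh7 at 472 CPM in HFD_PMA and 231 in ND_PMA (log2 fold change 1.03, edgeR adjusted p = 0.00265). Dhrs9 averaged 5.72 ± 1.94 CPM in HFD_cont and 0.808 ± 0.726 in ND_cont (log2 fold change 2.83, edgeR adjusted p = 0.0103). The calls of Adh7, Dhrs9 and Rbp2 held with each library left out in turn. Those of Crabp2, Sdr16c5 and Dhrs3 did not, with adjusted p reaching 0.0795, 0.133 and 0.18, and the list had 4 called members without HFD_cont_4 or without ND_cont_3, against 7. With the prefix as a covariate 3 of the list were called, and 2 with the hair gene level as a covariate.

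Among enzymes that act on foreign and oxidised compounds few were called. Of 22 glutathione S-transferases Gsta1, Gsta4 and Gsto1 rose and 0 fell (13.6%, against 2.87% of all genes called higher), with a median log2 fold change of 0.30. The call of Gsta1 was lost without HFD_cont_1, HFD_cont_2, HFD_cont_3, ND_cont_2 or ND_cont_4 (adjusted p up to 0.069). Gsto1, an omega-class transferase, had 129, 138, 171 and 138 CPM in HFD_cont, against 93.3, 91.8, 64.4 and 58.1 in ND_cont (log2 fold change 0.90, SE 0.16, edgeR adjusted p = 0.00254). Gsta4, which conjugates products of lipid peroxidation, averaged 11.8 ± 3.86 CPM in HFD_cont and 5.53 ± 1.5 in ND_cont (edgeR adjusted p = 0.0177); its call was lost without HFD_cont_1, HFD_cont_4 or ND_cont_3, with adjusted p up to 0.0712. Prdx1, a peroxiredoxin, was the only called gene among 22 targets of the oxidant sensor NRF2 and averaged 453 ± 17.8 CPM in HFD_cont and 288 ± 58.5 in ND_cont (edgeR adjusted p = 0.00942).

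Of 19 tested cytochrome P450 genes of families 1 to 3, 0 rose and 2 fell (10.5%, against 1.06% of all genes called lower). With the prefix as a covariate neither these 2 nor the 3 transferases were called (adjusted p of 0.0555 for Cyp2e1, 0.287 for Cyp2b23, 0.124 for Gsta1, 0.066 for Gsta4 and 0.193 for Gsto1). Cyp2e1, which oxidises ethanol, acetone and fatty acids, had 15.8, 25.5, 17 and 11 CPM in HFD_cont, against 48.3, 49.3, 71.9 and 69.0 in ND_cont. Every HFD_cont ear was below every ND_cont ear, and the log2 fold change was -1.78 (SE 0.26, edgeR adjusted p = 0.00041). Cyp2e1 was also lower in HFD_PMA at 6.68 CPM, against 28.4 in ND_PMA (log2 fold change -2.09, edgeR adjusted p = 0.00107). The other was Cyp2b23, at 7.91, 7.19, 19.9 and 17.3 CPM in HFD_cont, against 46.3, 103, 38.1 and 39.1 in ND_cont (log2 fold change -2.11, edgeR adjusted p = 0.0471). Cyp2b genes are close copies of each other, so reads of Cyp2b23 are uncertain, and its call was lost without any of the 8 untreated libraries and without HFD_PMA_3, ND_PMA_1, ND_PMA_2 or ND_PMA_4 (adjusted p up to 0.138).

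Genes of fat burning were higher where they were called. Fatty acids activate PPAR receptors, which turn on genes of mitochondrial β-oxidation. Of 30 tested genes of this list 6 rose and 0 fell (20% against 2.87% of all genes), and 24 of the 30 had a log2 fold change above 0, with a median of 0.27. Among the 6 were Acaa2, Acadl and Hadha, which act in β-oxidation, Ucp2, a carrier of the inner mitochondrial membrane, and Pdk4, which shuts off glucose oxidation.

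Ucp2 had 181, 251, 191 and 217 CPM in HFD_cont, against 109, 114, 147 and 82.1 in ND_cont (log2 fold change 0.90, SE 0.15, edgeR adjusted p = 0.00144). Acaa2, the last thiolase of the β-oxidation cycle, had 274, 317, 309 and 295 CPM in HFD_cont, against 209, 234, 206 and 152 in ND_cont (log2 fold change 0.58, SE 0.12, edgeR adjusted p = 0.00949). In both genes every HFD_cont ear was above every ND_cont ear. Hadha averaged 261 ± 8.76 CPM in HFD_cont and 195 ± 25.4 in ND_cont (edgeR adjusted p = 0.0316).

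Pdk4 behaved otherwise. It had 20.8, 94.5, 38.2 and 91.9 CPM in HFD_cont, against 16.2, 12.4, 37.7 and 24.2 in ND_cont. HFD_cont_2 and HFD_cont_4, both with prefix RHP, were high, and the RHS library HFD_cont_1 lay inside the ND_cont range. Its log2 fold change was 1.44 (SE 0.40, edgeR adjusted p = 0.0485), and -0.13 (edgeR adjusted p = 0.966) with the prefix as a covariate. Its call was lost without HFD_cont_2 or HFD_cont_4, without any ND_cont library except ND_cont_3 and in 6 of the fits without a PMA library (adjusted p up to 0.154).

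The fat-burning list had 3 called members without HFD_cont_2 and 0 with the prefix as a covariate or in the RHS libraries alone. The calls of Ucp2, Acaa2 and Acadl held with each library left out. Hadha lost its call without any HFD_cont library, ND_cont_1 or ND_cont_2 (adjusted p up to 0.0986). In PMA-treated skin 0 of the 30 were called, at 2.2% of all genes, and the median log2 fold change was 0.10; whether the diet effect on the list differs between the 2 states was tested gene by gene, and none of the 30 passed the interaction test in edgeR.

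Lipid synthesis gave smaller and mixed differences. Of 24 genes of cholesterol synthesis 23 had a log2 fold change above 0 (median 0.29, against -0.02 over all genes). Called higher were 3, Ebp, Mvk and Pmvk (12.5%, against 2.87% of all genes). Of 23 genes of fatty acid synthesis, desaturation and elongation 1 rose and 1 fell (4.35% each, against 2.87% and 1.06% of all genes). The 2 were elongases. Elovl5, which elongates polyunsaturated fatty acids, had 132, 134, 161 and 119 CPM in HFD_cont, against 228, 322, 228 and 272 in ND_cont (log2 fold change -0.94, SE 0.14, edgeR adjusted p = 0.000586). Elovl1, which makes the very long chains of epidermal ceramides, had 727 ± 63.5 CPM in HFD_cont and 524 ± 86.3 in ND_cont (log2 fold change 0.47, edgeR adjusted p = 0.0245), a call lost without HFD_cont_2, HFD_cont_3, HFD_cont_4 or ND_cont_4 (adjusted p up to 0.0837). With the prefix as a covariate the log2 fold change of Elovl1 was 0.28 (adjusted p of 0.614). The calls of Ebp, Pmvk and Mvk were lost without ND_cont_4 and, for Pmvk, ND_cont_3 and, for Mvk, HFD_cont_2 (adjusted p up to 0.063).

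Among 15 genes of the sebaceous gland 1 rose and 2 fell (6.67% and 13.3%, against 2.87% and 1.06% of all genes). Scd3, a stearoyl-CoA desaturase of sebocytes, had 6.18, 9.51, 6.39 and 10.4 CPM in HFD_cont, against 30.9, 33.7, 27.7 and 21.7 in ND_cont (log2 fold change -1.81, SE 0.43, edgeR adjusted p = 0.0212). Scd3 has close paralogs, and the call was lost without HFD_cont_1, HFD_cont_3, ND_cont_2 or ND_cont_3 (adjusted p up to 0.0697). Krt79, a keratin of the sebaceous duct and follicle canal, moved the other way, at 1337.5, 1172.7, 1133.3 and 1149 CPM in HFD_cont, against 510.83, 794.96, 603.14 and 419.58 in ND_cont (log2 fold change 1.04, SE 0.18, edgeR adjusted p = 0.00204). Among 18 adipocyte genes 0 rose and 2 fell, Car3 and Cidec (11.1%, against 1.06% of all genes called lower), and the median log2 fold change was -0.42. Both calls were lost without HFD_cont_1, HFD_cont_3, HFD_cont_4, ND_cont_1 or ND_cont_3, and that of Car3 also without ND_cont_2 (adjusted p up to 0.113 for Car3 and 0.143 for Cidec). The summed level of the adipocyte list was 1308 to 2050 CPM in HFD_cont and 1975 to 2632 in ND_cont, with overlap.

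**Figure D3:**
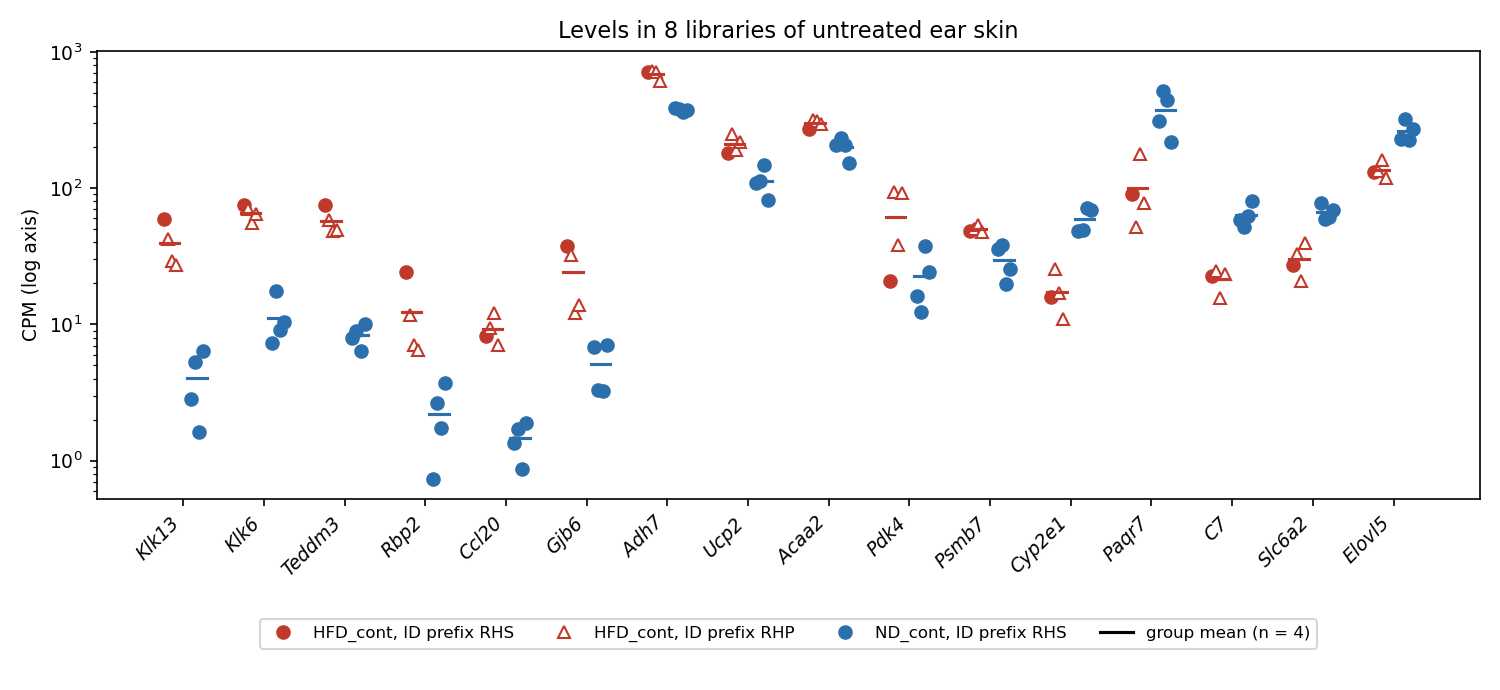
CPM on a log axis of 16 named genes in the 8 untreated libraries, HFD_cont in red left of ND_cont in blue; filled circles have ID prefix RHS, open triangles RHP, and bars are group means (n = 4). Pdk4 is the gene whose RHS library of HFD_cont, at 20.8 CPM, lies among the ND_cont values of 12.4 to 37.7.

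Genes of protein production and breakdown were higher where they were called. Cytosolic ribosomal proteins were called higher in 19 of 81 cases and lower in 0, against 2.87% higher over all genes, and 69 of the 81 had a log2 fold change above 0 (median 0.38). Rps2, a protein of the small subunit, had 493, 479, 556 and 537 CPM in HFD_cont, against 267, 275, 249 and 219 in ND_cont. All 4 HFD_cont ears were far above all ND_cont ears, with a log2 fold change of 1.03 (SE 0.11, edgeR adjusted p = 2.79e-05). Rpsa, another protein of that subunit, averaged 177 ± 22.3 CPM in HFD_cont and 88.6 ± 11.6 in ND_cont (edgeR adjusted p = 0.000239). The summed level of the list was 8594 to 9569 CPM in HFD_cont and 5469 to 6559 in ND_cont.

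Ribosomal protein genes have many near-identical pseudogenes, which can share their reads. Of 794 processed pseudogenes tested 48 were called higher (6.05%), 11 of them copies of ribosomal protein genes, and 0 lower. Ribosomal protein genes are also short, and the share of pseudogene counts and the length trend moved with diet as given above. After removal of the length trend 15 of the 81 were called, with the prefix as a covariate 10, in the RHS libraries alone 6, and 14 to 19 with single libraries left out. In PMA-treated skin 9 were called higher and the median log2 fold change was 0.12.

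The proteasome, which degrades ubiquitin-tagged proteins, had 8 of 37 subunit genes called higher and 0 lower (21.6%), and 34 of the 37 had a log2 fold change above 0. Psmb5, a catalytic subunit, had 94.6, 80.5, 82.2 and 89.5 CPM in HFD_cont, against 59.4, 59.2, 44.7 and 44.3 in ND_cont (log2 fold change 0.74, SE 0.13, edgeR adjusted p = 0.00208). Psma2, of the outer ring, averaged 105 ± 8.49 CPM in HFD_cont and 66.3 ± 5.80 in ND_cont (edgeR adjusted p = 0.00298). The calls of these 2 held with each library left out. The list's count was smaller without HFD_cont_1 (3), HFD_cont_2 (5), HFD_cont_3 (2), HFD_cont_4 (3), ND_cont_3 (2) or ND_cont_4 (2), 5 after removal of the length trend, 2 with the prefix as a covariate and 0 in the RHS libraries alone.

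Mitochondria gave a weaker picture. Of 78 nuclear genes for subunits of oxidative phosphorylation 4 rose and 0 fell (5.13%, against 2.87% of all genes called higher), with a median log2 fold change of 0.07. Of 13 protein-coding transcripts of the mitochondrial genome 3 were called higher, mt-Atp6, mt-Co1 and mt-Nd1, and all 13 had a log2 fold change above 0. None of the 13 was called after removal of the length trend, with the prefix as a covariate, or without HFD_cont_3, HFD_cont_4 or ND_cont_4, and 1 was without ND_cont_3. The subunit gene mt-Nd1 had 4168.1, 4756.6, 5281.3 and 5704.4 CPM in HFD_cont, against 3862.2, 3234.1, 2592.8 and 2517.3 in ND_cont.

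Stress-response genes of amino acid supply and of the endoplasmic reticulum were called in small numbers. Atf4, the transcription factor of the integrated stress response, had 80.6, 81.2, 83.3 and 95.5 CPM in HFD_cont, against 63.6, 52.5, 50.8 and 33.8 in ND_cont (log2 fold change 0.76, SE 0.16, edgeR adjusted p = 0.00948). Its target Psat1, an enzyme of serine synthesis, averaged 161 ± 16.2 CPM in HFD_cont and 103 ± 3.88 in ND_cont (log2 fold change 0.64, edgeR adjusted p = 0.00653). In the list of 25 genes these and Asns rose and the glutamine carrier Slc1a5 fell (12% and 4%, against 2.87% and 1.06% of all genes). Of 20 endoplasmic reticulum genes Manf and Calr rose (10%, against 2.87% of all genes called higher). Manf, a secreted survival factor, averaged 36.7 ± 5.29 CPM in HFD_cont and 18.3 ± 2.50 in ND_cont (log2 fold change 1.00, edgeR adjusted p = 0.00322). Without HFD_cont_1, HFD_cont_4, ND_cont_3 or ND_cont_4 neither Asns nor Slc1a5 was called, and Asns also lost its call without HFD_cont_2 or ND_cont_1 and Slc1a5 without HFD_cont_3 (adjusted p up to 0.11 and 0.113).

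Connexins form channels between keratinocytes, and Gjb2 and Gjb6 are known to be induced in wounded and psoriatic epidermis. Of 27 desmosome, tight junction and gap junction genes 4 rose, all of them connexins (Gja1, Gjb2, Gjb5 and Gjb6), and 1 fell, the desmoglein Dsg1c. These were 14.8% and 3.7%, against 2.87% and 1.06% of all genes. Gjb6 had 37.9, 32.4, 12.2 and 13.9 CPM in HFD_cont, against 6.79, 3.31, 3.27 and 7.07 in ND_cont (log2 fold change 2.25, SE 0.35, edgeR adjusted p = 0.000925). The groups did not overlap, and HFD_cont_1 and HFD_cont_2, highest in hair genes, were highest in Gjb6 too. With the hair gene level as a covariate the log2 fold change was 1.51 (edgeR adjusted p = 0.0856). Gja1 was likewise highest in HFD_cont_1 and HFD_cont_2, at 608, 485, 325 and 323 CPM in HFD_cont, against 253, 255, 219 and 294 in ND_cont (edgeR adjusted p = 0.0245). With the hair gene level as a covariate Gja1 was at a log2 fold change of 0.29 (adjusted p of 0.585) and Gjb2 at 0.46 (adjusted p of 0.55), so that 3 of the 4 connexin calls ended. Gja1, Gjb2, Gjb5 and Dsg1c lost their calls in several fits without 1 library (adjusted p up to 0.0941, 0.126, 0.138 and 0.103), and the list had 1 called member without HFD_cont_1 or HFD_cont_2, 2 without ND_cont_3, 3 without HFD_cont_4, ND_cont_1 or ND_cont_4, against 5.

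Of 15 EGF receptor ligands and receptors, which drive keratinocyte division, 2 ligands rose and 0 genes fell (13.3%, against 2.87% of all genes called higher). Epgn, which encodes epigen, had 2.84, 7.65, 4.50 and 5.76 CPM in HFD_cont, against 0.494, 0.568, 0.288 and 1.12 in ND_cont (log2 fold change 3.07, SE 0.47, edgeR adjusted p = 0.000767). Hbegf had 16.8, 21.3, 29.1 and 21.4 CPM in HFD_cont, against 15.8, 8.04, 9.52 and 6.73 in ND_cont (edgeR adjusted p = 0.0185), a call lost without HFD_cont_3, ND_cont_2, ND_cont_3 or ND_cont_4 (adjusted p up to 0.078). Of 22 DNA replication genes 21, and of 22 mitosis genes 20, had a log2 fold change above 0 (medians 0.41 and 0.57), but only Uhrf1, Birc5 and Ube2c were called, and each call was lost without HFD_cont_3, that of Ube2c also without ND_cont_4, and those of Birc5 and Uhrf1 without any 1 of HFD_cont_1, HFD_cont_2, ND_cont_1, ND_cont_2 and ND_cont_3 (adjusted p up to 0.131).

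Of 26 immediate early genes 2 rose (7.69%, against 2.87% of all genes). Ier3, an early response gene, had 41.1, 39.6, 58.2 and 49.0 CPM in HFD_cont, against 21.7, 25.4, 16.8 and 13.2 in ND_cont (log2 fold change 1.28, SE 0.21, edgeR adjusted p = 0.00124). Klf4 had 179, 204, 199 and 172 CPM in HFD_cont, against 144, 105, 116 and 127 in ND_cont (log2 fold change 0.62, SE 0.14, edgeR adjusted p = 0.0167). Id1, a target of BMP signals that blocks bHLH factors, averaged 84.6 ± 19.0 CPM in HFD_cont and 42.9 ± 8.18 in ND_cont (log2 fold change 0.98, edgeR adjusted p = 0.00408). These 3 calls held with each library left out, and none held with the prefix as a covariate (edgeR adjusted p = 0.114, 0.338 and 0.312).

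Of 22 genes of insulin and IGF signalling 1 rose and 1 fell (4.55% each, against 2.87% and 1.06% of all genes), both binding proteins of insulin-like growth factors. Igfbp2 had 116, 94.3, 93.1 and 82.3 CPM in HFD_cont, against 45.2, 66.6, 43.6 and 27.5 in ND_cont (log2 fold change 1.07, SE 0.19, edgeR adjusted p = 0.00264). Igfbp5 had 243, 252, 236 and 221 CPM in HFD_cont, against 334, 322, 349 and 421 in ND_cont (log2 fold change -0.58, SE 0.11, edgeR adjusted p = 0.00486). In both genes the groups were apart. The Wnt list of 32 had 0 higher and 2 lower (6.25%, against 1.06% of all genes), Dkk3 and the Wnt antagonist Wif1. The call of Wif1 was lost without any 1 of the 8 untreated libraries and without HFD_PMA_1, HFD_PMA_3, ND_PMA_1, ND_PMA_3 or ND_PMA_4 (adjusted p up to 0.144), and its log2 fold change was -0.26 with the hair gene level as a covariate. Dkk3 averaged 138 ± 11.2 CPM in HFD_cont and 221 ± 30.1 in ND_cont (edgeR adjusted p = 0.00355). Of 19 clock genes 0 rose and 2 fell (10.5%, against 1.06% of all genes called lower). Nr1d1, the clock repressor REV-ERBα, was at 253 ± 16.7 CPM in HFD_cont and 383 ± 70.2 in ND_cont (edgeR adjusted p = 0.0128). Cry2 was at 172 ± 15.3 CPM in HFD_cont and 264 ± 40.3 in ND_cont (edgeR adjusted p = 0.00969). Both clock calls were lost without ND_cont_3 and that of Nr1d1 also without HFD_cont_2 (adjusted p up to 0.0728), and the labels used here leave out the hour of sampling.

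Of the IL-1 family and its receptors 5 of 18 rose and 1 fell, and leaving out single libraries left 6 or 7 called. Il1f5, which encodes the IL-36 receptor antagonist, had 465, 450, 438 and 363 CPM in HFD_cont, against 273, 284, 252 and 224 in ND_cont (log2 fold change 0.73, SE 0.12, edgeR adjusted p = 0.000946). Il1f6, the agonist IL-36α that it opposes, rose by 2.37 on the log2 scale (edgeR adjusted p = 2.1e-05). Il18r1, a receptor chain for IL-18 on lymphocytes, had 0.865, 2.55, 0.944 and 2.39 CPM in HFD_cont, against 9.75, 6.72, 4.23 and 6.96 in ND_cont (log2 fold change -2.02, SE 0.43, edgeR adjusted p = 0.0107). Il1f5 was also higher in HFD_PMA, at 464 CPM against 300.1 in ND_PMA (edgeR adjusted p = 0.00813).

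Lipid mediators and antimicrobial proteins added a few strong changes. Alox8, an arachidonate lipoxygenase that PMA is known to induce in mouse skin, had 43.0, 61.2, 31.6 and 18.6 CPM in HFD_cont, against 3.21, 4.35, 0.673 and 0 in ND_cont (log2 fold change 4.22, SE 0.76, edgeR adjusted p = 0.0083). PMA-treated ears had 399.7 CPM of Alox8 in HFD_PMA and 49.2 in ND_PMA (log2 fold change 3.02, edgeR adjusted p = 0.0237). Pla2g4e, a cytosolic phospholipase A2, averaged 76.8 ± 24.3 CPM in HFD_cont and 38.3 ± 7.44 in ND_cont (log2 fold change 1.00, edgeR adjusted p = 0.00827). These were the 2 called of 31 eicosanoid genes (6.45%, against 2.87% of all genes called higher). Lcn2, an antibacterial protein of neutrophils and stressed epithelium, was low in both groups, at 4.82, 3.94, 3.85 and 1.85 CPM in HFD_cont, against 0.37, 1.14, 1.25 and 0.898 in ND_cont (edgeR adjusted p = 0.00905). The neutrophil list of 10 had a median log2 fold change of -0.61, with Lcn2 and Cxcr2 the 2 called, and its summed level of 43.9 to 74.5 CPM in HFD_cont overlapped that of 32.6 to 59.3 in ND_cont. Of 30 interferon-stimulated genes 0 were called by edgeR or by DESeq2 and 4 had an unadjusted p below 0.05 (median log2 fold change -0.41).

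Complement C7, a part of the membrane attack complex, fell. It had 22.7, 24.9, 15.5 and 23.5 CPM in HFD_cont, against 58.1, 51.6, 62.5 and 80.5 in ND_cont, and every HFD_cont ear was below every ND_cont ear (log2 fold change -1.55, SE 0.26, edgeR adjusted p = 0.00172). C7 was lower in HFD_PMA too, at 13.7 CPM against 29.6 in ND_PMA (edgeR adjusted p = 0.0281). It was the single called gene among 21 complement genes, of which 3 had a log2 fold change above 0.

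Matrix genes of the dermis beyond the collagens were called mostly lower, with Ppib the exception among the lists given here. Of 27 genes of elastic fibres, proteoglycans and matrix glycoproteins 0 rose and 4 fell (14.8%, against 1.06% of all genes), 26 had a log2 fold change below 0, and the summed level was 3908 to 4316 CPM in HFD_cont and 4965 to 6324 in ND_cont. The 4 were Eln, the elastin gene, Fn1, for fibronectin, Ltbp4, a fibrillin partner that stores TGF-β, and Aspn, a small proteoglycan. Fn1 had 300.4, 321, 344 and 289 CPM in HFD_cont, against 427, 443, 555 and 568 in ND_cont (log2 fold change -0.67, SE 0.18, edgeR adjusted p = 0.0409). Of 21 enzymes and chaperones that modify and crosslink collagen 4 fell (Adamts2, Lox, P4ha2 and Serpinh1) and 1 rose (Ppib). Mmp2, a gelatinase of fibroblasts, had 472, 484, 521 and 472 CPM in HFD_cont, against 664, 782, 779 and 744 in ND_cont (log2 fold change -0.61, SE 0.12, edgeR adjusted p = 0.00785).

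Apart from that of Mmp2, these dermal calls depended on single libraries. That of Mmp2 was lost with the prefix as a covariate, at a log2 fold change of -0.65, and without the 2 ears highest in hair genes. The elastic and glycoprotein list had 1 called member without HFD_cont_1, HFD_cont_4, ND_cont_2 or ND_cont_3, 0 without HFD_cont_2, HFD_cont_3 or ND_cont_4, 2 without HFD_PMA_1 or ND_PMA_3, and 1 after removal of the length trend. The collagen enzyme list had 2 called members without any 1 HFD_cont library and 1 without ND_cont_3 or ND_cont_4, against 5. With the prefix as a covariate neither list had a called gene. In PMA-treated skin, whose 8 libraries share the prefix RHP, 7 of the 27 elastic and glycoprotein genes were called lower and 0 higher, with a median log2 fold change of -0.51, against -0.43 in untreated skin and -0.03 and -0.02 over all genes. Eln and Fn1 were among the 7, at -0.90 (edgeR adjusted p = 0.0113) and -0.93 (edgeR adjusted p = 0.0103).

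Other cell types of the ear were checked through their markers. None of 19 skeletal muscle, 20 blood endothelial, 13 cartilage, 11 smooth muscle, 19 T cell, 12 mast cell or 13 MHC class II genes was called in either direction by edgeR. At an unadjusted p below 0.05 these lists had 3, 5, 6, 4, 4, 2 and 1 genes, and DESeq2 called 2 blood endothelial and 1 T cell genes and 0 of the others. The summed endothelial level was nevertheless 266.7 to 382.5 CPM in HFD_cont and 405.9 to 542 in ND_cont, and that of cartilage 708.2 to 980.6 in HFD_cont and 1050 to 1467 in ND_cont, both without overlap. Smooth muscle, at 318.2 to 338.9 in HFD_cont and 370.5 to 470.6 in ND_cont, and T cell genes, at 856.7 to 943.7 in HFD_cont and 987.1 to 1103 in ND_cont, did not overlap either. Nor did the macrophage list, at 801 to 1053 in HFD_cont and 1066 to 1197 in ND_cont. Such sums follow the most abundant members. The mean log2 CPM of the smooth muscle, T cell and macrophage lists overlapped between the diets, and that of the endothelial and cartilage lists did not. Lower without overlap were 2 of 11 smooth muscle, 2 of 19 T cell and 2 of 17 macrophage genes, against 5.46% of all genes. In smooth muscle 1 gene was higher without overlap. Of 17 monocyte and macrophage genes Csf1r alone was called, at 118, 137, 98.5 and 87.0 CPM in HFD_cont, against 151, 172, 212 and 233 in ND_cont (edgeR adjusted p = 0.0132), a call lost without HFD_cont_3, HFD_cont_4, ND_cont_3 or ND_cont_4 (adjusted p up to 0.0639). The list of keratinocyte keratins and other epidermal identity genes summed to 48910 to 55260 CPM in HFD_cont and 41750 to 44560 in ND_cont. Its mean log2 CPM overlapped between the diets. Of its 12 genes 7 had a log2 fold change above 0, with a median of 0.05. Krt1, Krt5, Krt10 and Krt14 were called higher and Col17a1 lower. The part of such shifts in the gene results above was not tested.

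Slc6a2, which encodes a noradrenaline transporter, had 27.4, 32.8, 20.8 and 39.9 CPM in HFD_cont, against 77.6, 58.9, 61.5 and 69.7 in ND_cont (log2 fold change -1.15, SE 0.20, edgeR adjusted p = 0.00237). It was at 16.2 CPM in HFD_PMA and 40.3 in ND_PMA (log2 fold change -1.32, edgeR adjusted p = 0.00265). Which cells of the ear hold this RNA was not tested. The list of 15 Schwann cell and nerve genes, which does not include Slc6a2, had 14 log2 fold changes below 0. Its summed levels were 597 to 695.1 CPM in HFD_cont and 749.5 to 946 in ND_cont, without overlap, but its mean log2 CPM overlapped. Only Ngfr was called. That call was lost without HFD_cont_2 to HFD_cont_4, ND_cont_1, ND_cont_3, ND_cont_4, HFD_PMA_1, ND_PMA_3 or ND_PMA_4 (adjusted p up to 0.181).

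Genes of the growing hair gave the largest ratios and the widest spread. All 19 genes of the shaft and inner root sheath and all 33 tested keratin-associated proteins had a log2 fold change above 0, with medians of 5.73 and 6.32. By edgeR 2 and 9 were called (10.5% and 27.3%, against 2.87% of all genes called higher). DESeq2, run without the edgeR filter, called 13 and 24. All 19 shaft and root sheath genes had an unadjusted p below 0.05 in edgeR. Higher without overlap were 12 of the 19 and 13 of the 33, against 7.18% of all genes. Krt71, a root sheath keratin shown here after its values had been seen, had 1098.8, 816, 27.2 and 306 CPM in HFD_cont, against 1.36, 6.05, 5.00 and 24.2 in ND_cont, and was not called (edgeR adjusted p = 0.121). HFD_cont_3 was at about the level of ND_cont_4. Padi3, which modifies hair shaft proteins, had 12.1, 12.2, 0.799 and 4.45 CPM in HFD_cont, against 0, 0.0946, 0 and 0.112 in ND_cont, and was called (edgeR adjusted p = 0.0256). Its call was lost without HFD_cont_2 or any ND_cont library (adjusted p up to 0.104). Among keratin-associated proteins between 1 and 26 were called as single libraries were left out.

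Leaving out HFD_cont_1 and HFD_cont_2, the ears with most hair transcripts, left 170 genes called in untreated skin (148 higher, 22 lower), 164 of them among the 691, with the other 2 HFD_cont ears still in the fit. With these 2 ears left out 7 of the 12 kallikreins and inhibitors and 13 of the 81 ribosomal protein genes were called, but 1 of the 31 retinoid genes and 0 of the keratin-associated proteins. In PMA-treated ears hair transcripts were high in HFD_PMA_1 at 6.45 on the same log2 scale, against 1.39 to 2.48 in the other HFD_PMA ears and -1.03 to 2.61 in ND_PMA.

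**Figure D4:**
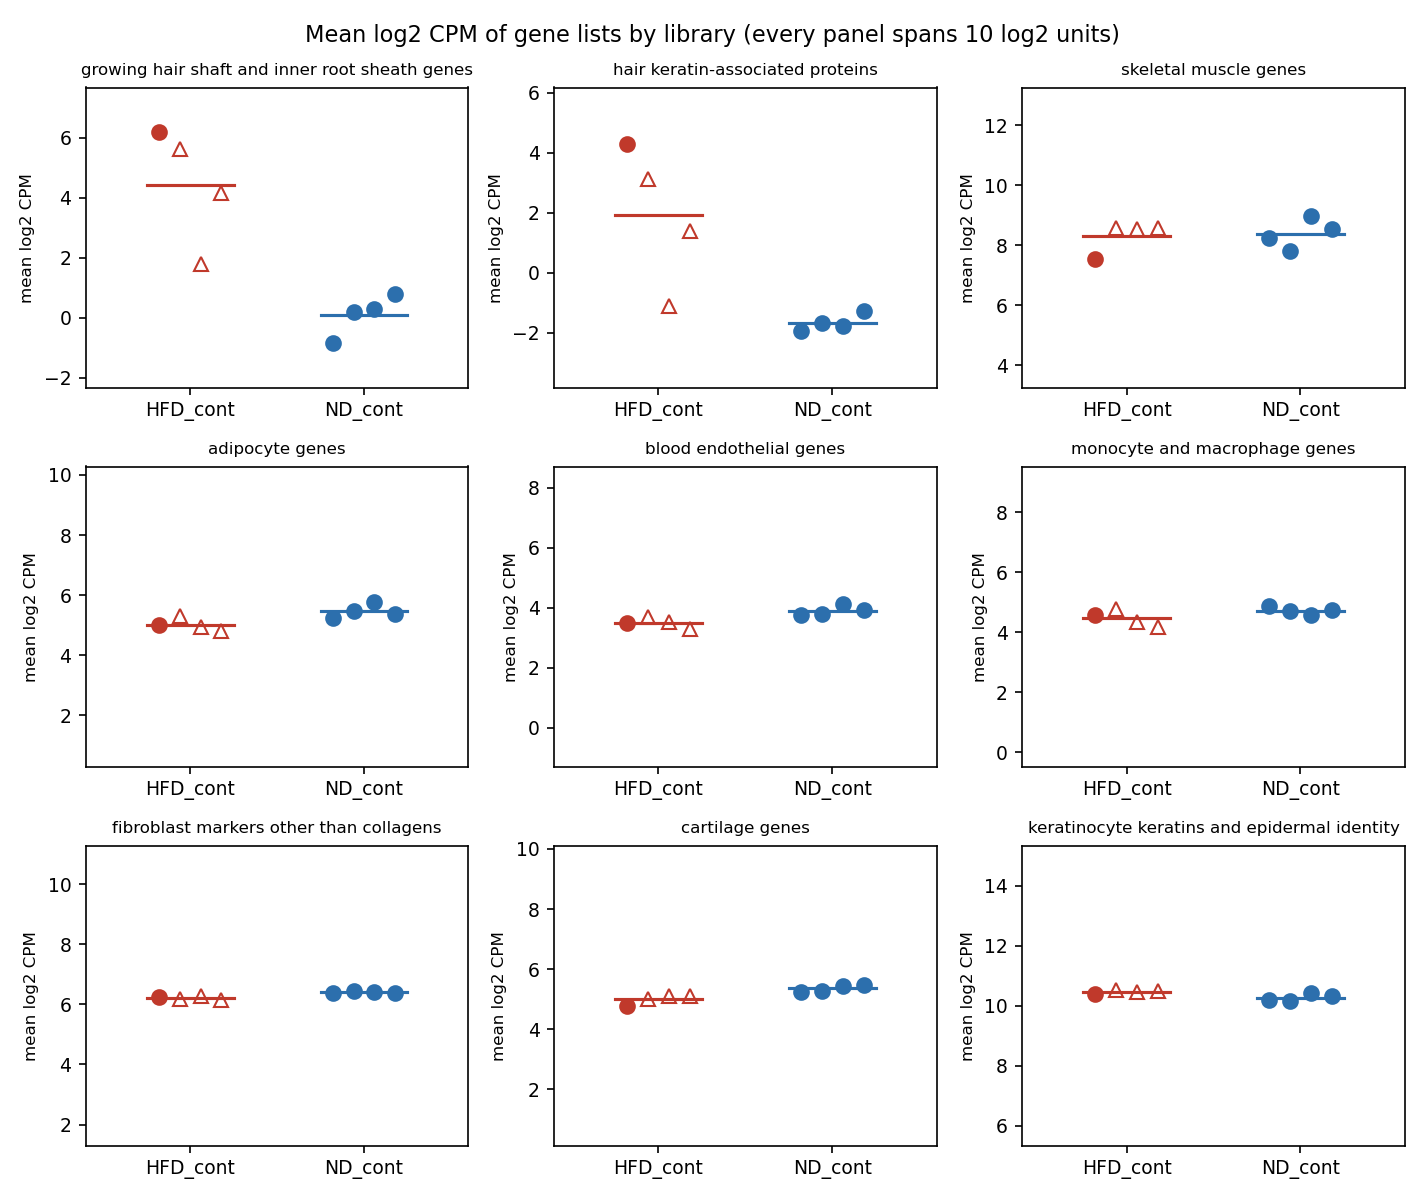
Mean log2 CPM of 9 gene lists in each untreated library, HFD_cont in red left of ND_cont in blue, filled circles for ID prefix RHS, open triangles for RHP, bars for group means; every panel spans 10 log2 units. Hair shaft genes run from 1.79 to 6.2 in HFD_cont and from -0.85 to 0.80 in ND_cont, while skeletal muscle genes overlap between 7.53 and 8.99.

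Among single genes outside these groups, Teddm3 and Tdh had the clearest increases. Teddm3, a gene of a transmembrane epididymal protein family, had 75.4, 58.0, 48.2 and 49.2 CPM in HFD_cont, against 7.90, 8.99, 6.44 and 10.1 in ND_cont (log2 fold change 2.79, SE 0.18, edgeR adjusted p = 1.61e-08). Tdh, threonine dehydrogenase, had 18.7, 14.5, 12.9 and 12.8 CPM in HFD_cont, against 1.97, 2.08, 3.08 and 1.12 in ND_cont (log2 fold change 2.81, SE 0.33, edgeR adjusted p = 5.72e-05). Both kept their call with each library left out, with the prefix or hair gene level as a covariate and in the RHS libraries alone. Tdh overlaps an opposite-strand gene model.

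Tubb3, a tubulin best known from neurons, had 16.2, 12.5, 5.74 and 13.8 CPM in HFD_cont, against 0.741, 1.42, 1.15 and 0.449 in ND_cont (log2 fold change 3.64, SE 0.56, edgeR adjusted p = 0.000759). Krt84, a type II keratin of the hair keratin family that is known from the tongue, had 22.1, 28.8, 14.2 and 10.2 CPM in HFD_cont, against 3.33, 3.22, 1.73 and 4.15 in ND_cont (log2 fold change 2.60, SE 0.34, edgeR adjusted p = 0.000206). Krt84 was highest in HFD_cont_1 and HFD_cont_2, the ears with most hair transcripts. HFD_cont_3, the lowest HFD_cont ear in hair shaft genes, was above HFD_cont_4 in Krt84. Lyg2, a goose-type lysozyme gene, was at 71.8, 27.7, 3.70 and 5.43 CPM in HFD_cont and at 0, 0, 0 and 0.112 in ND_cont, and its level was highest in the ears with most hair transcripts.

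Paqr7, a membrane progestin receptor, was called lower in both untreated and PMA-treated skin, and its call held with each library left out. The call was lost with the prefix as a covariate, at a log2 fold change of -2.03. It was also lost with the 8 libraries of the contrast alone and without the 2 ears highest in hair genes. Paqr7 had 91.4, 52.1, 178 and 77.9 CPM in HFD_cont, against 314, 519, 445 and 217 in ND_cont (log2 fold change -1.90, SE 0.35, edgeR adjusted p = 0.00558), and 37.9 CPM in HFD_PMA against 109 in ND_PMA (log2 fold change -1.54, edgeR adjusted p = 0.0315). Dpyd, A2m, Cyp4v3, Zfp775, Mov10 and Col5a3 were among the 12 largest decreases as well, and each of these 6 lost its call without at least 3 of the untreated libraries.

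PMA-treated ears gave a second comparison of the same diets with no library in common and with the ID prefix RHP throughout. There 387 genes were called (2.2%), 166 higher (0.943%) and 221 lower (1.26%) in HFD_PMA. Of the 505 genes higher in HFD_cont 491 had a log2 fold change above 0 in PMA-treated skin, where 46.6% of all genes did, and of the 186 lower ones 180 were below 0, where 53.4% of all genes were. Called the same way in both were 111 higher and 70 lower genes, 26.2% of the untreated and 46.8% of the PMA-treated calls, and 0 genes were called in opposite directions. The median log2 fold change of the called higher genes was 0.81 in untreated and 0.47 in PMA-treated skin, and that of the called lower genes -0.67 and -0.52. The mean length of the gene behind a count differed with diet there too, at 4648 to 4742 bases in HFD_PMA and 4810.8 to 5014.7 in ND_PMA. With the muscle gene level as a covariate 108 genes were called in PMA-treated skin, against 387. Of 13 cartilage genes 5 were called lower there, against 0 in untreated skin.

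The diet effect itself differed between untreated and PMA-treated skin in 1 gene, 0.00568% of those tested, by edgeR (815 genes at an unadjusted p below 0.05, and 23 genes by DESeq2). That gene was Teddm3, which was at 137, 191, 156 and 138 CPM in HFD_PMA, against 84.7, 91.0, 97.7 and 91.7 in ND_PMA. The log2 fold change of 2.79 in untreated skin stood against 0.77 in PMA-treated skin, a difference of -2.02 (edgeR adjusted p = 0.000538), with the same direction in both. A gene called in untreated skin only is therefore not shown to respond differently after PMA.

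**Figure D5:**
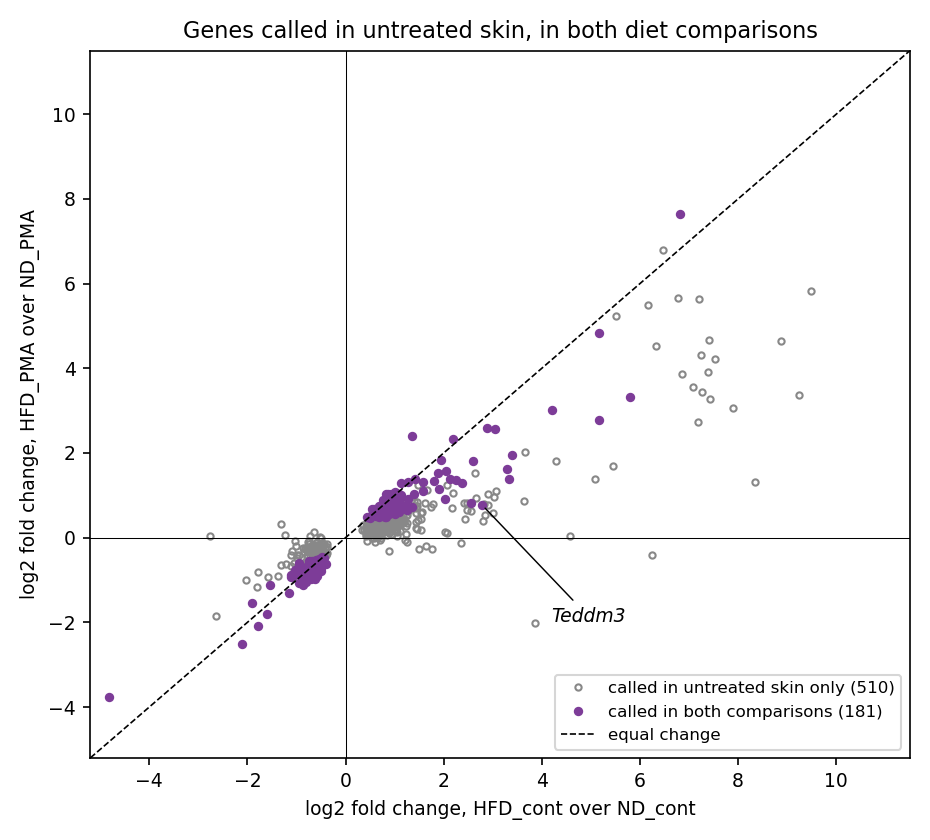
Log2 fold change HFD_cont over ND_cont (horizontal) and HFD_PMA over ND_PMA (vertical) of the 691 genes called in untreated skin, purple where called in both comparisons (181) and grey where called in untreated skin only (510); the dashed line marks equal change. Values run from -4.82 to 9.49 in untreated and from -3.76 to 7.66 in PMA-treated skin.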

How the data were processed

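Per the labels' protocols, SMART-Seq2 cDNA was made from ear skin RNA of 16 B6 mice, and Nextera XT gave the libraries. The method carries neither strand information nor molecular identifiers, so PCR copies cannot be separated from molecules. The authors deposited raw counts per gene in a single table, and these counts were used unchanged. STAR 2.3 and featureCounts 1.5 are named per the submitters' processing notes, with builds GRCm38 and mm10. Their settings, and which annotation release was used, are not stated in the labels used here. The labels' protocols name ERCC spike-ins, and the table held 0 ERCC entries.

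Genes passing filterByExpr per group (minimum count 10, minimum total 15) were scaled by TMM and tested in edgeR 4.0.16 by robust quasi-likelihood under R 4.3.3. All 16 libraries entered the model, which had 4 group means, 12 residual degrees of freedom and no covariate. Contrasts were HFD_cont over ND_cont, HFD_PMA over ND_PMA and their difference, with Benjamini-Hochberg adjustment over 17604 genes and calls below 0.05. CPM used TMM-scaled totals. For log2 CPM the prior count was 2. SE is the absolute log2 fold change over the square root of F. Mice are taken to be separate animals from the labels.

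The comparison, lists and genes were chosen with earlier results of these data known. Named genes were the 12 largest increases and decreases among called genes with a mean of at least 5 CPM and groups that did not overlap, without predicted models and the best-known keratinocyte and collagen lists. Added were the 6 largest in each direction called in both contrasts and up to 4 called members of each list. A part of these is described, a few genes are not reported here, and list members outside the rule, such as Klk10, Klk12, Klk14, Spink5 and Spink7, were named after their values had been seen.

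Libraries of a group correlated at 0.935 to 0.957 on log2 CPM and differed beyond sampling noise. Untreated libraries held 7739487 to 13801239 counts, so levels below 1 CPM rest on few counts. On counts simulated for HFD_cont and ND_cont over 17604 genes, true changes of 1.5-fold were called in 14.3% of cases, of 2-fold in 47.2% and of 4-fold in 77.6%, and 2.33% of calls were false. All simulated libraries shared a single expression profile, without differences in prefix, hair cycle or gene length between the diets. Changes were placed only in genes with a mean of at least 1 CPM. The share of false calls in the real data was therefore not measured.

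Settings tried were DESeq2 1.42.0, other size factors (RLE, upper quartile), mitochondrial genes left out, other filters, the replicate block, the 8 libraries of a contrast alone, the ID prefix, hair or muscle gene level as covariate, subsets of libraries, single libraries left out, and, chosen after seeing the data, removal of the gene-length trend. Gene positions are from GENCODE M21, which matched 48058 of 48440 gene IDs without version. Exon bases are shared with a different gene by 33 of the 127 genes followed, among them Adh7, Cry2, Csf1r, Eln, Elovl1, Fn1, Hadha, Klk8, Manf, Nr1d1, Pla2g4e, Psmb5, Rps2, Rpsa, Tdh and Ucp2, and their reads are uncertain. Promoters are from RefSeq on GRCm38.p6, with entries for 92 of the 127.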

Additional observations from a re-analysis of the deposited data

Results flagged for a closer look

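Within the groups of 4 ears, 14 of 264 sets of values examined (5.3%) held 1 ear far from the other 3 by Dixon's gap-to-range ratio, and chance gives about 1 in 20. Of these 12 are given here. In HFD_cont_1, Nhp2 at 68.9 CPM was above the other HFD_cont ears at 43.5 to 47.8, Ngfr at 133 above 86.3 to 91.4, and the mean log2 CPM of skeletal muscle genes at 7.53 below 8.54 to 8.57. Adh7 in HFD_cont_4, at 608 CPM, was below the other HFD_cont ears at 712 to 723.

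Single ND_cont ears stood apart as follows. ND_cont_1 had Klk14 at 0.741 CPM, above 0 to 0.0946 in the other ND_cont ears. In ND_cont_2 Cyp2b23 was at 103 CPM, above 38.1 to 46.3. ND_cont_3 was high in Nr1d1, at 488 CPM against 336 to 360, in Eln, at 235 against 135 to 140, and in Krt34, at 0.0961 against 0. ND_cont_4 was low in Elovl1, at 395 CPM against 558 to 572, and above 0 in Krtap26-1 (0.561) and Lyg2 (0.112) where the other ND_cont ears had 0 counts.

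The diet effect on Teddm3 differed between PMA-treated and untreated skin by -2.02 on the log2 scale, by the interaction term in edgeR (adjusted p = 0.000538). It was higher on the high-fat diet in 4 of 4 ears in both states.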

How the results depend on the processing

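Against 691 genes called between HFD_cont and ND_cont, DESeq2 called 1208 (816 of them higher), the prefix as a covariate 179, the RHS libraries of untreated skin alone 132, and the fit without the 2 ears highest in hair genes 170. Leaving out single libraries gave 336 to 889. Against 387 between HFD_PMA and ND_PMA, DESeq2 called 890, the 8 libraries alone 175, the fit with the RHS libraries only in untreated skin 204 and the muscle gene level as a covariate 108, and leaving out single libraries gave 116 to 436 (116 without HFD_PMA_2, 204 without ND_PMA_3, 238 without ND_PMA_4). RLE scaling gave 203 higher and 183 lower there. Against the 1 interaction gene, DESeq2 called 23, the muscle level as a covariate 3, and no filter, a stricter filter, the replicate block, the prefix as a covariate and the RHS libraries only in untreated skin 2 each, and leaving out single libraries gave 1 to 4. The 8 libraries alone cannot give the interaction. The cause of these moves was not tested, except that smaller sets hold fewer samples.

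The replicate number as a block gave 669 calls in untreated skin (494 higher, 175 lower). Of 124 called genes followed by name, 55 were called in every fit without 1 library, 124 by DESeq2, 112 under the block, 29 with the prefix as a covariate, 25 in the RHS libraries alone, 64 with the hair level as a covariate and 100 after removal of the length trend. Only Pdk4 changed sign, to -0.13 with the prefix as a covariate and -0.10 in the RHS libraries alone. Deviations of same-numbered HFD_cont and ND_cont libraries correlated at -0.0473 to 0.022, and those of differently numbered ones at -0.0752 to 0.0974. No pairing by number was seen, which does not exclude a weak one. Depth and 4 mice a group limit what can be called for small changes and for genes below 1 CPM.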

Other observations

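Several further lists were examined in untreated skin. Of 34 serpins and other protease inhibitors 2 rose and 2 fell (5.88% each, against 2.87% and 1.06% of all genes). Serpina9, which overlaps another gene, was at 16.1, 9.51, 3.85 and 6.19 CPM in HFD_cont, against 2.10, 3.5, 3.17 and 2.36 in ND_cont (edgeR adjusted p = 0.00639, and 0.245 with the hair gene level as a covariate). Of 27 genes of TGF-β and BMP signalling Id1 rose and Tgfb3 fell (3.7% each, against 2.87% and 1.06% of all genes). Tgfb3, a TGF-β ligand, averaged 88.5 ± 11.1 CPM in HFD_cont and 137 ± 9.63 in ND_cont (SD, n = 4 each, edgeR adjusted p = 0.0177), a call lost without HFD_cont_1, HFD_cont_3 or ND_cont_4 (adjusted p up to 0.0741). Of 28 lysosome genes 1 rose and 1 fell (3.57% each, against 2.87% and 1.06% of all genes). Of 20 genes of lipid uptake and transport 0 rose and Lrp1, named here after its values had been seen, fell (5%).

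By edgeR no member was called in either direction among 9 melanocyte, 16 hair follicle stem cell, 7 lymphatic endothelial, 6 red cell, 12 eosinophil and type 2 immunity, 15 glucocorticoid response and 9 thermogenic genes. At an unadjusted p below 0.05 these lists had 1, 3, 2, 0, 2, 2 and 2 genes, and DESeq2 called 2 follicle stem cell, 2 lymphatic endothelial and 1 thermogenic genes and 0 of the others. The summed level of the follicle stem cell list was 3385 to 4402 CPM in HFD_cont and 5037 to 6523 in ND_cont. That of the lymphatic endothelial list was 154.1 to 167.5 CPM in HFD_cont and 190.2 to 204.9 in ND_cont, both without overlap. The mean log2 CPM of the follicle stem cell list overlapped between the diets, and that of the lymphatic endothelial list did not.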
